A study of Mus musculus with 24 samples.

Results

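Prox1, Nr2f2, Lyve1, Pdpn and Reln, a set of 5 genes by which lymphatic and venous endothelium are recognised, were followed through mouse amniotic cells, endothelial cells reprogrammed from them and endothelial cells of lung and liver. The rule that defines the set is the list of these symbols, each known as a lymphatic or venous gene, and it uses no threshold on the values. They are 5 of the 22282 genes obtained when the deposited RefSeq transcript values were summed per gene symbol. That count includes 649 transcripts without a symbol, each kept as an entry of its own. PROX1 is the homeodomain transcription factor that turns venous endothelium into lymphatic endothelium, and COUP-TFII, the nuclear receptor encoded by Nr2f2, holds venous identity and acts together with PROX1 in lymphatic cells. LYVE1 is a hyaluronan receptor of the lymphatic capillary that liver sinusoidal endothelium and some tissue macrophages also carry. Podoplanin (Pdpn) is a mucin-like membrane protein of lymphatic endothelium that is shared with fibroblasts, mesothelium and type 1 alveolar cells, and reelin (Reln) is a large secreted glycoprotein, best known from the developing brain, that lymphatic endothelium also makes.

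RNA was sequenced from 24 libraries in 8 groups of 3, all from C57BL/6J mice. MACs were amniotic fluid cells of embryos at stages E11.5-E13.5. RACVECs were such cells given lentiviral Etv2, Erg and Fli1, members of the Ets family of transcription factors that drive vascular genes, and were grown in endothelial medium with an inhibitor of TGF-beta receptors. Akt-RACVECs and Sox17-RACVECs carried the same 3 factors plus, respectively, myristoylated Akt (a constitutively active form of a survival kinase) or Sox17 (a transcription factor of arterial endothelium). Akt-MACs carried the active Akt alone. Akt-LECs and Akt-liver ECs were endothelial cells of adult lung and of liver, captured with beads against CD31, given the active Akt and cultured. By the study's methods they were plated in the same endothelial medium, which holds the inhibitor of TGF-beta receptors. Amniotic cells were first cultured in a different medium, AmnioMAX. In Akt-LEC the L stands for lung, not for lymphatic. CD31 and VE-cadherin, on which those cultures were selected, are present on lymphatic as well as blood endothelium. LSECs were liver endothelial cells sorted directly from the organ, by VE-cadherin antibody and isolectin given to the living animal, and were taken by the study as non-lymphatic endothelium. They differ from Akt-liver ECs in how they were selected, in the culture and in the Akt, which cannot be told apart. By the study's methods a replicate of MACs was a separately isolated culture, and no such definition is given there for the lung and liver cells.

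Values are FPKM, fragments scaled by transcript length and, between libraries, by the authors' upper-quartile normalisation. They are set per length and can be compared between genes. No counts came with them, which leaves the sequencing depth under a value unknown, and a gene given as 0 is described as listed at 0, since such a value may be a failed estimate and does not show absence. None of 19 housekeeping genes was at 0 in any library, and their lowest value was 38.4. The sum of FPKM per library lay between 1689486 and 2317294. A gene was called changed when its adjusted p was under 0.05 and its difference exceeded 1 on the log2(FPKM + 1) scale, with limma over all 14964 genes whose mean FPKM reached 1 and Benjamini-Hochberg adjustment. All 5 genes passed that filter. In bulk RNA such as this, fewer cells that make a transcript and less transcript per cell cannot be told apart.

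The library labelled Sox17-RACVEC 2 stood apart from its group, and a transduced factor was missing from it. Etv2 was listed at 0 there, against 458 and 378 FPKM in Sox17-RACVEC 1 and 3. Sox17 was present in it at 40.1, against 5.09 and 200.1 in libraries 1 and 3 and 0 in every RACVEC library. Fli1 stood at 434 in it, and its label names both. Akt-RACVECs also held both, with means of 59.2 (SD 40.9, n = 3) for Sox17 and 315.9 (SD 43.3, n = 3) for Fli1. Their presence in this library therefore does not tell its label from that of Akt-RACVECs. Erg, the remaining transduced factor, stood at 387 in it but at only 4.49 and 0 in Sox17-RACVEC 1 and 3 and at 0.90 to 13.8 in RACVECs, so for Erg those libraries are the ones low in a factor their labels name. Its closest library was Akt-RACVEC 3 (Pearson r = 0.983 over genes on the log2 scale, against 0.928 with each library of its own group). Its values also enter the spread that the fit uses in every comparison. Results for the 5 genes that turn on it are given with and without it, and those for the gene lists with it only. The 9 pan-endothelial markers listed for this purpose summed to 53.2 to 95.5 FPKM in MACs, 2171 to 4479 in RACVECs, 13780 to 22160 in Akt-RACVECs, 7296 to 16860 in Akt-LECs, 11710 to 18990 in Akt-liver ECs and 20090 to 22320 in LSECs. All 9 were present in LSECs, which also held the 6 sinusoidal markers at a sum of 47900 to 56570 and, in addition, macrophage markers at 13050 to 22540, hepatocyte markers at 2032 to 11680 and the 6 hepatic stellate markers at 919.7 to 1047.

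In the mm9 annotation, the build of the deposited files, all 5 genes lie on the minus strand. Prox1 occupies chr1:191945660-191994559, Nr2f2 chr7:77496832-77511621, Lyve1 chr7:117994121-118006467, Pdpn chr4:142857334-142889467 and Reln chr5:21390272-21850523. Since the reprogramming factors belong to the Ets family, the 250 bases upstream of the start sites of the pair of transcription factor genes are shown, taken from RefSeq on GRCm38.p6 (a later build, with its own coordinates) and written 5′ to 3′ along the minus strand. Prox1 has a pair of start sites in that table, with windows at chr1:190170828-190171077 and chr1:190169516-190169765, and Nr2f2 has the window chr7:70366747-70366996. Capitals mark every match, on either strand, to the letters Ets proteins recognise, which were taken as AGGAAG, its variant AGGAAA that ends differently, and the variants that begin with the other permitted base, which are CGGAAG in the former case and CGGAAA in the latter.
Prox1, the first start site: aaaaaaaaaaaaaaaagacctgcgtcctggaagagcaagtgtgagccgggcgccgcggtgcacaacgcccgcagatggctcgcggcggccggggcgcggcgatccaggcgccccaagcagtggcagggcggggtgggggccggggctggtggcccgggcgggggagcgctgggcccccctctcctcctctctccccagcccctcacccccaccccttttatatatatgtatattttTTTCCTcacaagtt
Prox1, the second start site: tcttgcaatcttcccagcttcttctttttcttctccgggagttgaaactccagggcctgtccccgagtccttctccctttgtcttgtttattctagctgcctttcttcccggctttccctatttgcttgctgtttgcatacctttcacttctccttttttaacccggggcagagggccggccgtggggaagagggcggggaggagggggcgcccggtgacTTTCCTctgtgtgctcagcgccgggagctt
Nr2f2: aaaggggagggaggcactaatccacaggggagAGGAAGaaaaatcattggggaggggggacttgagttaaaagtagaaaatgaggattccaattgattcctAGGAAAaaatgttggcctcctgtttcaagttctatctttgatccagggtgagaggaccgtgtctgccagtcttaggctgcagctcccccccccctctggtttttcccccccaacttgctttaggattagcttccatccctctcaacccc

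Each Prox1 window held 1 match, beginning 14 and 30 bases before its start site, and the Nr2f2 window held 2, at 218 and 149 bases before it. The windows of Pdpn and Reln held 1 match each, and no window was available for Lyve1, which was not searched. Such letters are common: 57.2% of the 32851 RefSeq windows of this length held at least 1. The letters ACAAT, which Sox proteins recognise, were present on either strand in the Pdpn window but in none of the other 4, and in 27.7% of all windows. These matches describe letters only, and no binding was measured.

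**Figure D1:**
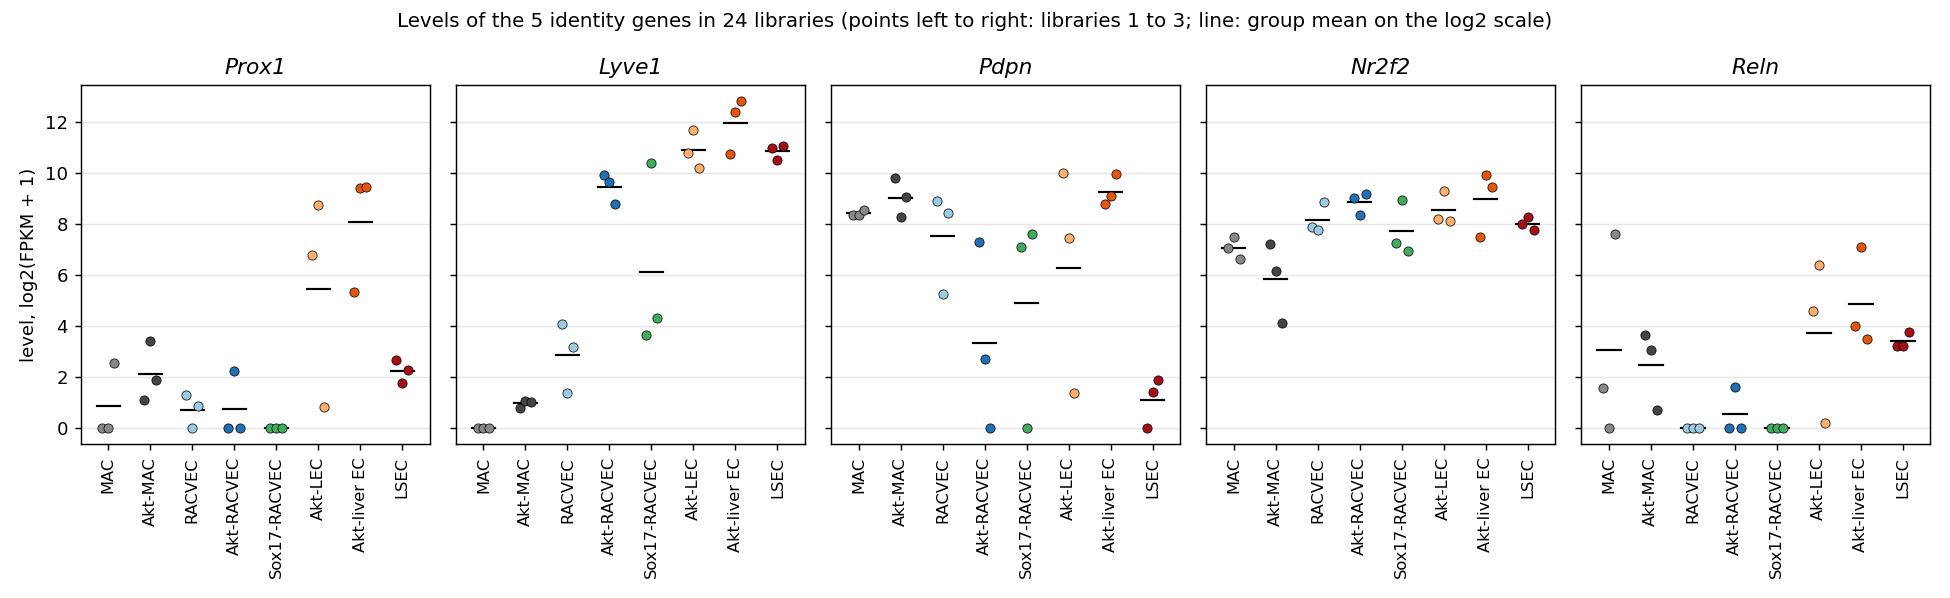
FPKM of Prox1, Lyve1, Pdpn, Nr2f2 and Reln in each of the 24 libraries on a log2(FPKM + 1) axis, with libraries 1 to 3 of each group from left to right and a bar at the group mean on that scale. Prox1 is high in 5 of the 6 Akt-LEC and Akt-liver EC libraries and low elsewhere, Lyve1 climbs from 0 in MACs to its top in Akt-liver ECs, and Nr2f2 is present in every library.

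Prox1, the lymphatic master regulator, was high only in the cultured lung and liver endothelial cells among these groups. The Akt-liver EC libraries 1, 2 and 3 read 39.3, 683 and 703 FPKM (475 ± 378, SD, n = 3) and the Akt-LEC libraries 111, 433 and 0.79 (182 ± 225, SD, n = 3). Every library but Akt-LEC 3 in those groups stood above every library of the other 6 groups, whose highest value was 9.72. Prox1 was 2.43 to 5.42 in LSECs and 1.16 to 9.72 in Akt-MACs. MACs read 0, 0 and 4.93, RACVECs 1.44, 0 and 0.80, Akt-RACVECs 0, 3.76 and 0, and all Sox17-RACVEC libraries were listed at 0. No neighbours in the order of group means were separated beyond the spread of their libraries. Akt-LEC 3 lay within the range of the low groups, Akt-LEC 1 and 2 lay within that of Akt-liver ECs, and neighbouring low groups overlapped.

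Set against LSECs, Akt-liver ECs had Prox1 called higher, by 5.83 ± 1.45 (SE) on the log2 scale (95% interval 2.79 to 8.86, adjusted p = 0.00455 by limma), and the libraries did not overlap. It was also called higher in the cultured endothelial cells of both organs, weighted equally, than in MACs, by 5.91 ± 1.26 (SE, adjusted p = 0.0036), although Akt-LEC 3 fell below MAC 3. When the fit held only those groups, the adjusted p of that second difference was 0.0876. Akt-RACVECs against Akt-LECs, the pair of groups that share active Akt, gave -4.72 ± 1.45 (SE) with an adjusted p of 0.315, and without Akt-LEC 3 the difference was -7.03 with an adjusted p of 0.00812, so that this single library decides the call. None of the Ets-transduced groups was called different from its own starting group for Prox1. The intervals there were wide, at -3.18 to 2.89 for RACVECs against MACs and -3 to 3.08 for Akt-RACVECs against RACVECs. Hepatocytes, which also make PROX1, left markers in LSECs (albumin 1951, 1211 and 7975 FPKM) where Prox1 was low, and their part in the Prox1 level was not tested.

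Nr2f2, the venous regulator, was on in every library, between 16.5 FPKM in Akt-MAC 3 and 981 in Akt-liver EC 2. Akt-liver ECs read 181, 981 and 704, Akt-RACVECs 523, 331 and 582, and Akt-LECs 289, 623 and 280.4. RACVECs followed at 232.5, 217 and 463, LSECs at 258, 312 and 216, and Sox17-RACVECs at 154, 487 and 121, the middle value being the library labelled Sox17-RACVEC 2. MACs (133, 179 and 98.2) and Akt-MACs (150.0, 69.7 and 16.5) were lowest. No neighbours in this order of group means were free of overlap.

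Nr2f2 was not called in any of the 8 pairwise comparisons. RACVECs nevertheless stood above MACs in all 3 libraries of each, with a difference of 1.10 ± 0.69 (SE, 95% interval -0.35 to 2.55, adjusted p = 0.398). The cultured lung and liver cells also stood wholly above MACs, at 1.69 ± 0.60 (SE, adjusted p = 0.0531), just outside the threshold. The call was made under 5 of the alternatives, among them the omission of Akt-liver EC 1 (0.0162) and of the library labelled Sox17-RACVEC 2 (0.0393). Akt-MACs against MACs gave -1.23 ± 0.69 (SE, adjusted p = 0.477). Sox17-RACVECs against RACVECs gave -0.45 ± 0.69 (SE, adjusted p = 1), and -1.06 without the library labelled Sox17-RACVEC 2 (adjusted p = 0.954).

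The Nr2f2 value is the sum of a pair of RefSeq transcripts, NM_009697 and NM_183261, and their balance set LSECs apart. NM_183261 carried 57.9, 53.8 and 55.9% of Nr2f2 FPKM in the LSEC libraries. In 20 of the other 21 libraries it carried between 8.1% and 28%, the exception being MAC 2 at 52.6%. NM_009697 alone was 109, 144 and 95.5 FPKM in LSECs and 151, 707 and 579 in Akt-liver ECs, and with transcripts tested apart it was called higher in Akt-liver ECs (1.78 ± 0.67, SE, adjusted p = 0.0497 by limma over 18506 transcripts). NM_183261 was 121 to 168 in LSECs and 30.2 to 273 in Akt-liver ECs, with a difference of -0.51 ± 0.87 (SE, adjusted p = 0.707). NM_009697 was likewise called higher in the cultured cells than in MACs (1.87 ± 0.58, SE, adjusted p = 0.0319). How the authors' software divides fragments between overlapping transcripts bears on these shares, and the difference of the shares themselves was not tested.

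**Figure D2:**
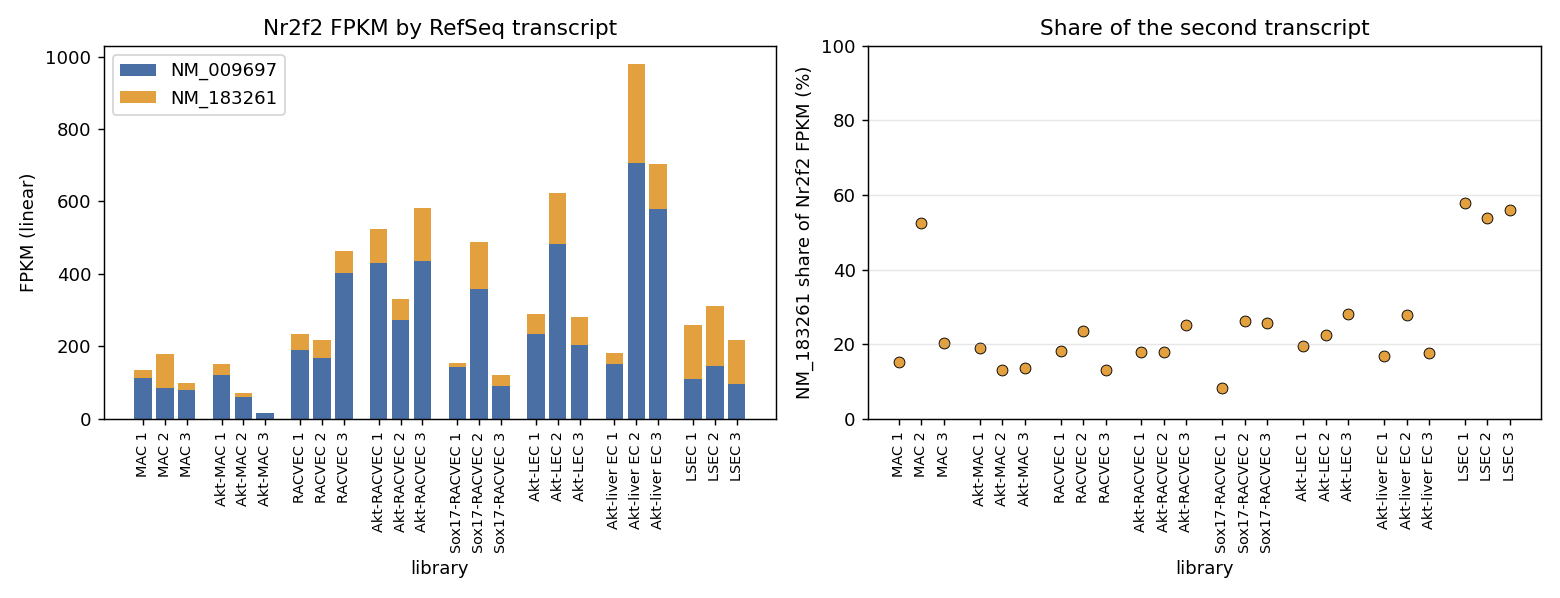
Nr2f2 in each library as stacked FPKM of its RefSeq transcripts on a linear axis (left) and the percentage carried by NM_183261 (right). The LSEC libraries lie between 53.8% and 57.9% and MAC 2 at 52.6%, while the other 20 libraries lie between 8.1% and 28%.

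Lyve1, the hyaluronan receptor, spanned the widest range of the set. It was listed at 0 in all 3 MAC libraries and read 0.71, 1.11 and 1.05 FPKM in Akt-MACs. RACVECs read 16.0, 1.62 and 7.97 (8.52 ± 7.19, SD, n = 3), and Akt-RACVECs 978, 810.2 and 440.3 (743 ± 275, SD, n = 3). Each of these 4 groups lay wholly above the preceding group in that order. LSECs read 2047, 1452 and 2164, Akt-LECs 1772, 3350.3 and 1192, and Akt-liver ECs 1725, 5333 and 7229. LSECs lay wholly above Akt-RACVECs, whereas LSECs, Akt-LECs and Akt-liver ECs overlapped one another.

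Lyve1 was the only gene of the set called between Akt-RACVECs and RACVECs, 1 of 5 where 0.261% of all genes tested were called in either direction and 0.221% were called higher. The difference was 6.58 ± 1.14 (SE) on the log2 scale (95% interval 4.18 to 8.98, adjusted p = 0.0254 by limma), and the lowest Akt-RACVEC library (440.3 FPKM) stood above the highest RACVEC library (16.0). The call was lost, with the direction kept, without RACVEC 1 (adjusted p = 0.0577), without RACVEC 3 (0.0835), without Akt-RACVEC 2 (0.0722) and when only those groups were fitted (0.0919). Without the library labelled Sox17-RACVEC 2 the adjusted p was 1.17e-05. In that fit 231 of all genes tested were called higher and 135 lower, against 33 and 6 in the main fit. The 9 markers of macrophages, which can also carry Lyve1, summed to 1.15 to 33.7 FPKM in Akt-RACVECs and 0 to 0.29 in RACVECs, with Clec4f and Timd4 listed at 0 in all Akt-RACVEC libraries. The pan-endothelial sum given above moved in the same direction between these groups, and the part of either list in the Lyve1 result was not tested.

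The same addition of Akt to MACs, without Ets factors, left Lyve1 at no more than 1.11 FPKM. Akt-MACs also held macrophage markers at a summed 307 to 27150 FPKM, and their part in the Lyve1 level was not tested. The Akt effect in RACVECs minus that in MACs had an adjusted p of 0.146 for Lyve1, which became 0.00307 without the library labelled Sox17-RACVEC 2 and 0.0478 when only the 4 groups involved were fitted. No fold is given for it, since MACs were listed at 0. For RACVECs against MACs the adjusted p of Lyve1 was 0.173, and it was 0.00949 without the library labelled Sox17-RACVEC 2. Against MACs, the cultured lung and liver cells were called higher with an adjusted p of 5.41e-07.

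In Sox17-RACVECs Lyve1 read 11.6 and 18.7 FPKM in libraries 1 and 3 and 1363 in the library labelled Sox17-RACVEC 2, whose value lay above all Akt-RACVEC libraries. With all 3 libraries the difference from RACVECs was 3.24 ± 1.14 (SE, adjusted p = 0.573). Without the library labelled Sox17-RACVEC 2 it was 1.10, with an adjusted p of 0.917, and the remaining libraries overlapped RACVECs, whose highest value was 16.0.

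Podoplanin followed a different order from Lyve1 and was not restricted to endothelial groups. Pdpn read 327, 323 and 374 FPKM in MACs and 889, 307 and 532 in Akt-MACs, the groups with the lowest pan-endothelial sums (39.6 to 95.5). RACVECs read 481, 37.4 and 343, and Akt-RACVECs 157, 5.55 and 0. Akt-liver ECs stood at 440.2, 544 and 988 and Akt-LECs at 1035, 175 and 1.56, while LSECs were nearly devoid of it at 0, 1.65 and 2.70. By group mean the order was Akt-liver ECs, Akt-MACs, Akt-LECs, MACs, RACVECs, Sox17-RACVECs, Akt-RACVECs and LSECs, and every pair of neighbours in it overlapped.

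The Pdpn level of Akt-liver ECs was called higher than that of LSECs, by 8.18 ± 2.03 (SE) on the log2 scale (95% interval 3.91 to 12.4, adjusted p = 0.00454 by limma), with no overlap of libraries. Together with Prox1 this made 2 of the 5 genes called in that comparison, both higher, where 27% of all genes were called in either direction and 14.1% were called higher. Neither passed when the log2 ratio of mean FPKM was taken with a per-gene test on linear FPKM (unadjusted p = 0.163 for Prox1 and 0.0598 for Pdpn). The other 3 gave adjusted p of 0.313 (Nr2f2), 0.483 (Lyve1) and 0.51 (Reln). Between Akt-RACVECs and RACVECs the Pdpn difference of -4.20 ± 2.03 (SE) had an adjusted p of 0.323, with 1 Akt-RACVEC library inside the range of RACVECs. The 7 fibroblast and mesenchymal markers summed to 2376 to 5572 FPKM in RACVECs, 0.31 to 183 in Akt-RACVECs and 2601 to 9218 in MACs. In Akt-liver ECs that sum was 2025 to 2710, against 339 to 904 in LSECs. Thy1 alone made 2212 and 2316 of it in Akt-liver EC 2 and 3, where the collagen gene Col1a1 stood at 5.66 and 1.14, Pdgfra at 1.39 and 0.31 and Lum at 0, while Akt-liver EC 1 held Col1a1 at 556. Of the 7 markers 1 was called higher (Thy1) and 1 lower (Lum) in that comparison. The part of such cells in the Pdpn difference between Akt-RACVECs and RACVECs was not tested. In Sox17-RACVECs Pdpn read 135 and 195 in libraries 1 and 3 and was listed at 0 in the library labelled Sox17-RACVEC 2. The difference from RACVECs was -2.63 ± 2.03 (SE, adjusted p = 0.91) with that library and -0.18 without it.

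Reelin was at or below 2.06 FPKM in every library built on the Ets factors. Reln was listed at 0 in all 3 RACVEC and all 3 Sox17-RACVEC libraries and read 0, 2.06 and 0 FPKM in Akt-RACVECs. Akt-liver ECs read 14.8, 137 and 10.2, Akt-LECs 22.9, 83.8 and 0.15, LSECs 8.26, 8.36 and 12.6, and Akt-MACs 11.7, 7.38 and 0.63. The highest value of all was in MAC 3, at 193, while MAC 1 and 2 read 2.00 and 0, so that the MAC mean of 65.1 ± 111 (SD, n = 3) rests on 1 library. Reln was called in none of the comparisons. The nearest to the threshold before adjustment was Akt-RACVECs against Akt-LECs, at -3.19 ± 1.57 (SE, adjusted p = 0.596).

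**Figure D3:**
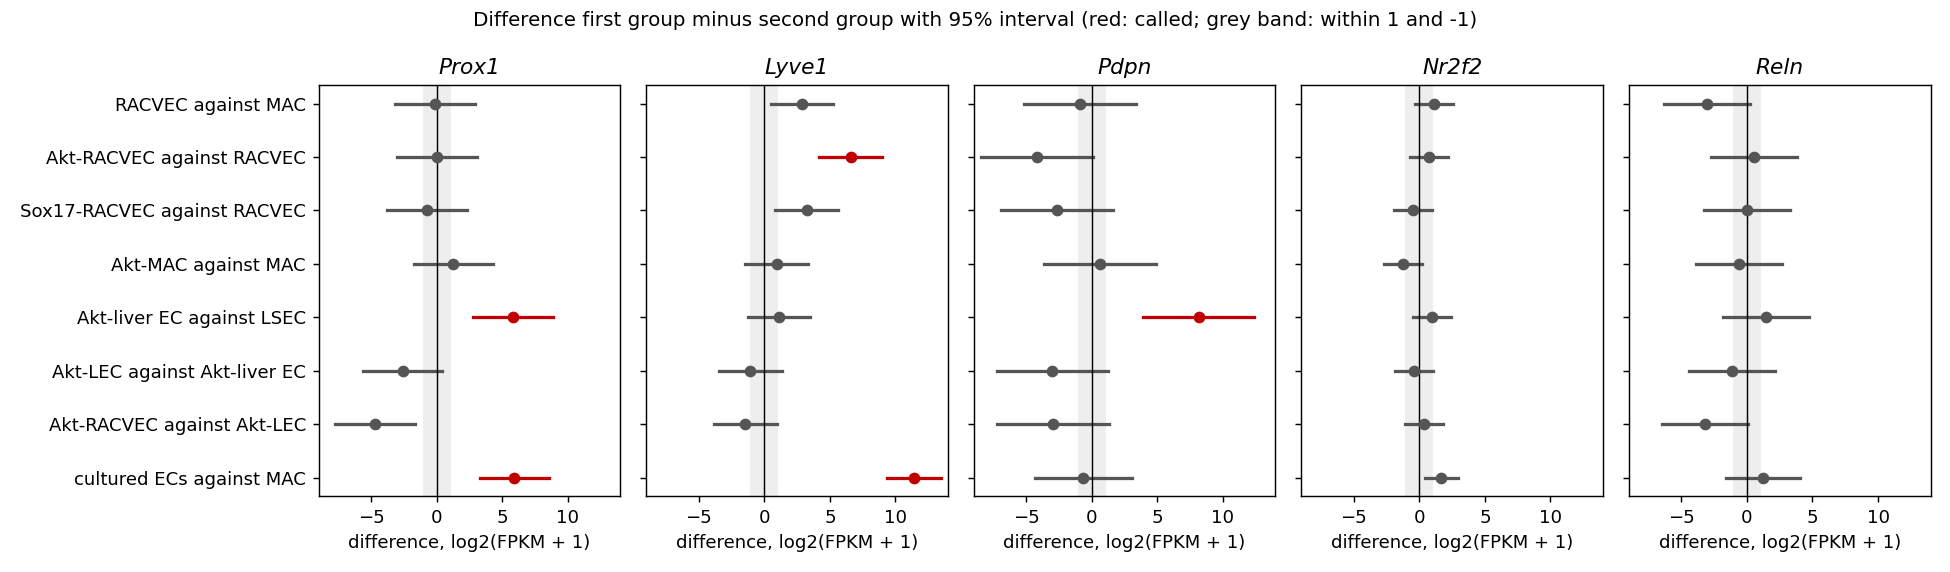
Differences between groups for each of the 5 genes on the log2(FPKM + 1) scale with 95% intervals from limma, first-named group minus second, where red marks a call and the grey band covers differences within 1. Red appears for Prox1 and Pdpn in Akt-liver ECs against LSECs, for Lyve1 in Akt-RACVECs against RACVECs, and for Prox1 and Lyve1 in the cultured endothelial cells against MACs, where MACs were listed at 0 for Lyve1 and the plotted size depends on the constant of 1.

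Across the whole set, none of the 5 genes was called between RACVECs and MACs by limma (1 had an unadjusted p under 0.05, Lyve1), where 2.71% of all genes were called. None was called between Sox17-RACVECs and RACVECs (1 unadjusted, again Lyve1), where 0.00668% were called. Akt-MACs against MACs gave 0 calls and 0 at an unadjusted p under 0.05, with 2.81% called among all genes, and Akt-LECs against Akt-liver ECs likewise gave 0 and 0, with 0.0134% called. Akt-RACVECs against Akt-LECs gave 0 calls and 1 gene at an unadjusted p under 0.05, Prox1, with 0.00668% called among all genes. In the cultured endothelial cells against MACs, 2 of 5 were called, both higher, where 14.8% of all genes were called and 7.3% were called higher. The Akt effect in RACVECs minus that in MACs gave 0 calls, with 1 gene, Lyve1, at an unadjusted p under 0.05 and 0.1% of all genes called. Several of these comparisons share a group, such as RACVECs or MACs, so they are not independent of each other.

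The cultured lung and liver libraries varied widely within each group. None of the 5 genes was called between Akt-LECs and Akt-liver ECs, where the Prox1 difference was -2.60 ± 1.45 (SE, 95% interval -5.64 to 0.44, adjusted p = 1). Akt-LEC 2 and Akt-liver EC 2 and 3 held the highest Prox1, and Akt-LEC 3 held the lowest Prox1, Lyve1, Pdpn and Reln of the 6. Of the 17 tested genes in the lymphatic list, 10 had their 3 highest values in these same libraries and 2, Vegfd and Ccbe1, their 3 lowest, beside 12.7% and 13.9% of all genes. The order was examined after the values were seen, and the 4 genes given next were picked from the 10 in the same way. Mmrn1, a secreted multimerin of lymphatic endothelium, read 482, 3662 and 13.1 FPKM in Akt-LEC 1, 2 and 3 and 131, 2826 and 3363 in Akt-liver EC 1, 2 and 3. Ccl21a, the chemokine by which lymphatic vessels draw in dendritic cells, read 0, 4646 and 2.53 in Akt-LECs and 0, 1519 and 184.5 in Akt-liver ECs. Flt4, the receptor for VEGF-C, read 525, 1705 and 74.7 and then 406, 2425 and 1579. Tbx1, a T-box factor needed for lymphatic growth, read 75.8, 411 and 1.04 and then 31.4, 193 and 566. Akt-LEC 3 was the lowest of the 6 libraries for Mmrn1, Flt4 and Tbx1. In the other direction, Vegfd read 29.8, 1.31 and 2.38 in Akt-LECs and 29.8, 0.97 and 0.74 in Akt-liver ECs.

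Library Akt-LEC 3 was nonetheless endothelial by its pan-endothelial markers and Lyve1, which stood at 1192. Its closest library was Akt-RACVEC 1 (r = 0.965), ahead of both other Akt-LEC libraries (0.934 and 0.95). Akt-LEC 1 and Akt-liver EC 1 were closest to each other (r = 0.974) across organs. They held the macrophage markers at 523 and 576 FPKM in sum, against at most 2.13 in the other 4 cultured libraries. Akt-LEC 1, the library with the highest Pdpn (1035), also held the fibroblast and mesenchymal markers at 3927 in sum, against 25.5 and 91.5 in the other Akt-LECs. Akt-liver EC 1 held the 6 epithelial markers at 1815, against at most 29.8 in Akt-liver EC 2 and 3. The part of such cells in the Pdpn values was not tested. What sets these libraries apart was not tested.

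**Figure D4:**
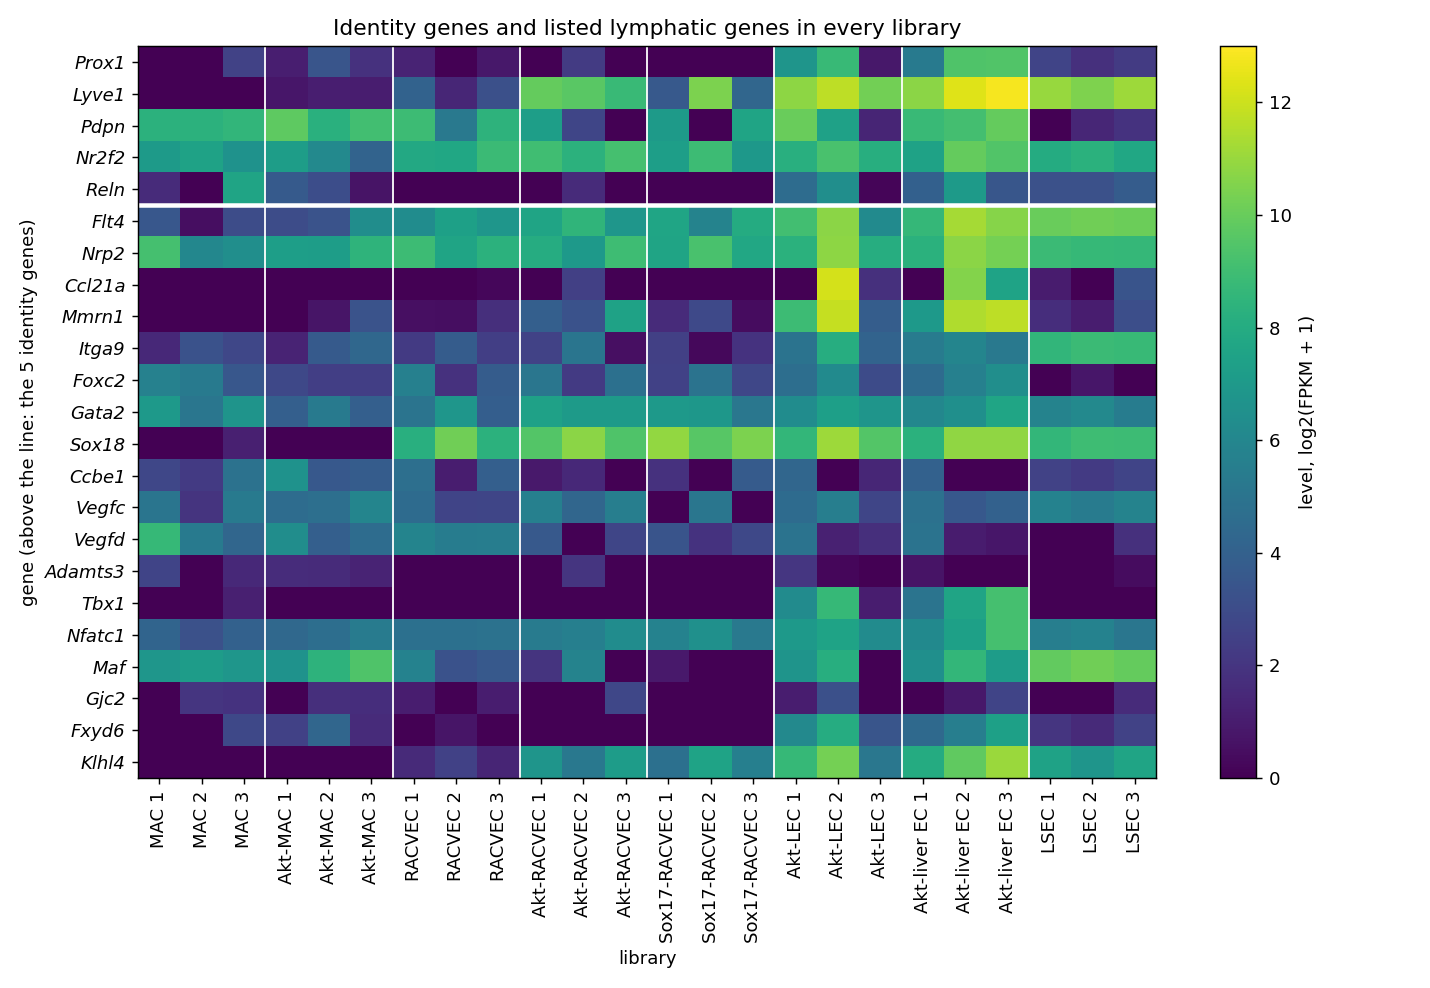
Levels on the log2(FPKM + 1) scale of the 5 genes (above the line) and of 18 other genes of lymphatic endothelium (below it) in every library, with groups parted by vertical lines and lighter colours for higher levels. Mmrn1, Tbx1 and Ccl21a are lightest in the libraries with the highest Prox1, which are Akt-LEC 2 and Akt-liver EC 2 and 3. Tbx1 is at or near 0 in every group other than Akt-LECs and Akt-liver ECs, and Sox18 is high in every group except MACs and Akt-MACs.

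Of the 18 listed lymphatic genes 17 were tested. Against LSECs, Akt-liver ECs had 5 called higher and 1 lower, where 27% of all genes were called in either direction and 14.1% called higher, with a median difference of 1.15 beside 0.08 over all genes. Mmrn1 rose by 8.12 ± 1.59 (SE, adjusted p = 0.000741), and Foxc2, a forkhead factor of lymphatic valves, by 5.27 ± 0.99 (SE, adjusted p = 0.000512). Tbx1 was listed at 0 in all LSEC libraries (adjusted p = 0.000182). Itga9, an integrin subunit of lymphatic valves, fell by 3.19 on the log2 scale (SE 1.06, adjusted p = 0.026), so the listed genes did not move one way. Against MACs, the cultured endothelial cells had 9 called higher and 1 lower, beside 14.8% called and 7.3% called higher over all genes, with a median of 3.11 beside 0.03. Sox18, the factor that switches on Prox1 in the embryo, rose by 9.50 ± 0.59 (SE, adjusted p = 9.36e-09), while Mmrn1 and Klhl4, listed at 0 in all MACs, had adjusted p of 0.000253 and 1.49e-06. Vegfd, a ligand of Flt4, fell by 3.69 on the log2 scale (SE 1.1, adjusted p = 0.0246).

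In RACVECs against MACs 2 of the 17 lymphatic genes were called, both higher, beside 2.71% of all genes called, with a median of -0.04 beside 0. They were Sox18, at 290, 1175 and 330 FPKM in RACVECs against 0, 0 and 1.18 in MACs (8.54 ± 0.68, SE, adjusted p = 8.79e-07), and Flt4, at 80.4, 165 and 113 against 10.7, 0.38 and 7.15 (4.51 ± 1.06, SE, adjusted p = 0.0257). Sox18 was thus present in RACVECs in which Prox1 stood at 1.44 or less. Tbx1 was listed at 0 in every library of the 3 groups built on Ets factors, and Fxyd6, a regulator of the sodium pump, at 0 in 8 of their 9 libraries, with 0.66 in RACVEC 2. With all 24 libraries in the fit, no lymphatic gene was called between Akt-RACVECs and RACVECs (median 0.29 beside 0). The same held for Sox17-RACVECs against RACVECs (-0.09 beside -0.02) and for Akt-MACs against MACs (0.45 beside 0.09). Klhl4 came nearest in the Akt-RACVEC comparison, at 4.59 ± 0.97 (SE, adjusted p = 0.0509 by limma).

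The 8 listed venous genes were all tested. Selp, the P-selectin of venous endothelium, was called higher in RACVECs than in MACs (6.70 ± 1.03, SE, adjusted p = 0.00113). It was the only venous gene called there, beside 2.71% of all genes. In the cultured endothelial cells against MACs 3 were called, all higher, beside 14.8% of all genes called and 7.3% called higher. They were Selp (8.12 ± 0.89, SE), the ephrin receptor Ephb4 (2.18 ± 0.59, SE) and the neuropilin Nrp2 (2.22 ± 0.72, SE), with adjusted p of 9.32e-06, 0.0149 and 0.0375, and the list's median was 2.20. Against LSECs, Akt-liver ECs had Selp and the chromatin remodeller Smarca4 called higher (5.60 ± 1.03 and 1.52 ± 0.21, SE) and Ackr1, an atypical chemokine receptor of venules, called lower (-4.70 ± 1.49, SE, adjusted p = 0.0203), with a median of 0.48, and scaling by the median ratio made the latter count 2. These 3 of 8 stand beside 27% of all genes called there.

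The 16 listed arterial genes, the counterpart to these, had 15 tested. In the cultured endothelial cells against MACs 10 were called higher and 1 lower, beside 14.8% of all genes called and 7.3% called higher. The median was 2.15 beside 0.03 over all genes, so that arterial genes stood higher there alongside lymphatic and venous ones. Akt-liver ECs against LSECs had 3 higher and 4 lower (median -0.09), again beside 27% of all genes. In RACVECs against MACs the arterial receptor Notch4 alone was called (4.67 ± 1.04, SE, adjusted p = 0.0183), beside 2.71% of all genes. In Akt-RACVECs against RACVECs, with all 24 libraries in the fit, Sox17 alone was called, beside 0.261% of all genes. Sox17 was listed at 0 in all RACVEC libraries (adjusted p = 0.0423).

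Receptors of reelin were measured in groups where reelin itself was listed at 0. The list held the lipoprotein receptors Lrp8 and Vldlr, the adaptor Dab1 and the integrin subunits Itga3 and Itgb1. RACVECs, with Reln listed at 0, read 136, 76.7 and 127 FPKM for Vldlr and 60.5, 15.5 and 15.4 for Lrp8. Dab1, the adaptor through which both receptors signal, was listed at 0 in every library of the Ets-based groups, of Akt-LECs and of LSECs, and was not tested. LSECs showed the opposite arrangement, with Reln at 8.26 to 12.6 but Vldlr at 0, 0 and 0.44 and Lrp8 at 0.81, 0.26 and 0. LSECs also held the stellate cell markers Lrat at 52.7 to 59.0 and Colec11 at 111 to 155, against at most 1.25 in Akt-liver ECs. Both, like Rgs5 and Hgf of that list, were called lower in Akt-liver ECs, while Ecm1 and Des were not called. Des read 0 to 267 in Akt-liver ECs and 14.2 to 18.7 in LSECs. The part of such cells in the Reln level was not tested. In Akt-liver ECs against LSECs 3 of the 4 tested reelin genes were called, all higher, where 27% of all genes were called. They were Itga3 (6.82 ± 0.84, SE), Vldlr (6.15 ± 0.81, SE) and Lrp8 (5.08 ± 0.58, SE), with adjusted p of 5.72e-06, 1.21e-05 and 1.94e-06. The cultured cells against MACs had 2 called higher, Itga3 and Lrp8 (adjusted p = 0.00293 and 0.0467), beside 7.3% of all genes called higher. This count became 1 when libraries were scaled by the median ratio.

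Among the 6 listed partners of podoplanin, its platelet receptor CLEC-2 (Clec1b) was high in the liver cells where podoplanin was low. Clec1b read 1360.0, 1149 and 1458 FPKM in LSECs, where Pdpn was at or below 2.70, and 11.97, 1.75 and 2.89 in Akt-liver ECs, where Pdpn was at 440.2 or more. The Clec1b difference was -7.99 ± 0.62 (SE, adjusted p = 1.19e-08), the only one called among these partners, where 27% of all genes were called. All 9 macrophage markers were called lower in the same comparison (median -8.91, summed levels 0 to 576 in Akt-liver ECs), and their part in the Clec1b result was not tested. The cytoskeletal linkers Ezr, Msn and Rdx, the hyaluronan receptor Cd44 and the lectin Lgals8 were not called there. Of the 7 hyaluronan genes found, Stab2, the sinusoidal clearance receptor, read 2213, 2140 and 1863 in LSECs and 173, 54.4 and 58.3 in Akt-liver ECs (-4.64 ± 1.01, SE, adjusted p = 0.00166), and Hyal2, a hyaluronidase, fell by 1.27 (SE 0.41, adjusted p = 0.0231). Stab2 and Hyal2 were the only ones of the 7 called there, again beside 27% of all genes. Lyve1 itself, at 1452 to 2164 and 1725 to 7229 in the same groups, was not called (1.12 ± 1.14, SE, adjusted p = 0.483). Stab2 was listed at 0 in every MAC and RACVEC library and read 64.8, 70.9 and 1.09 in Akt-RACVECs.

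Over the 24 libraries the genes whose log2 levels followed each of the 5 most closely were searched among 11698 genes with a mean of at least 10 FPKM. These correlations describe libraries that fall into 8 groups, and they carry no test. Prox1 was followed by Tbx1 (r = 0.943), Emid1 (0.936) and Meox1 (0.925), of which Meox1, a homeobox gene, read 38.8, 225 and 0 in Akt-LECs and 21.2, 162 and 118 in Akt-liver ECs. Lyve1 was followed by the adhesion receptor gene Adgrg3 (0.964), by Gimap1 (0.949) and by Erg (0.948), a reprogramming factor that the lentivirus supplied to 3 of the groups. Erg read 3.91, 13.8 and 0.90 in RACVECs and 395, 1002 and 418 in Akt-RACVECs, while Lyve1 went from 1.62 to 16.0 in the former and from 440.3 to 978 in the latter. Nr2f2 was followed by Ephb4 (0.839), the venous ephrin receptor, and by Poglut2 (0.832) and Kank3 (0.817). Pdpn was followed by Gpnmb (0.900) and Ext1 (0.885), and Reln by Camk2n1 (0.831), Arhgef12 (0.814) and Slc16a12 (0.813).

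The 5 genes did not follow each other closely. Among the 10 pairs the highest correlation over the 24 libraries was between Prox1 and Reln (r = 0.758), followed by Lyve1 and Nr2f2 (0.694) and Prox1 and Lyve1 (0.543). The correlation was negative for Lyve1 and Pdpn (-0.41) and, more weakly, for Pdpn and Nr2f2 (-0.26).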

How the data were processed

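RNA was sequenced as pairs of 51-base reads, aligned by the authors with TopHat to mm9 and summarised with Cufflinks, with upper-quartile normalisation and bias correction. The deposited FPKM values of 27583 RefSeq transcripts per library were summed per symbol for the 26934 with a current mouse symbol. The other 649 were kept as entries of their own, giving 22282 entries, all called genes here. FPKM were not counts, so log2(FPKM + 1) was fitted with limma 3.58.1 (trend, R 4.3.3) over all 24 libraries and 8 groups, with the 14964 genes of mean FPKM at least 1 and Benjamini-Hochberg adjustment. A call needed an adjusted p under 0.05 and a difference over 1. The script was tested on simulated data. The 5 genes, the gene lists and the marker lists were chosen with earlier results of these data known. Named were the 5 genes, at most 3 called genes per list, comparison and direction, and the 3 genes most alike to each of the 5, of which 1 is not reported here. Of all listed genes, Tmem2, Cd68 and Rtkn2 had no matching symbol. No 2 libraries were identical. Alternatives were other pseudocounts (0.1 and 10), no filter or a mean of at least 10, scaling by the median ratio, the compared groups only, a replicate block, each replicate left out, transcripts kept apart and the criterion of the study's methods (a ratio of mean FPKM past 1 on the log2 scale with an unadjusted p under 0.05). Leaving out the library labelled Sox17-RACVEC 2 from every comparison was chosen after seeing the data.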

Additional observations from a re-analysis of the deposited data

How the results depend on the processing

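No difference for the 5 genes that was called, in the main fit or an alternative, changed sign between them. Of the single-gene values, 732 kept their side of the threshold, while 11 gained a call and 11 lost it with the sign kept. The 732 include uncalled differences whose sign could change, such as Pdpn in the cultured endothelial cells against MACs. That difference was -0.64 in the main fit, though mean FPKM was 531 against 341. Beside 0 calls for RACVECs against MACs, 1 (Lyve1) was called with a pseudocount of 0.1. Beside 1 for Akt-RACVECs against RACVECs, 0 were called when only these groups were fitted and 0 with the replicate block. Beside 2 for Akt-liver ECs against LSECs, 1 was called with the block (Pdpn, with Prox1 at an adjusted p of 0.0575) and 0 by the criterion of the study's methods (unadjusted p = 0.163 for Prox1 and 0.0598 for Pdpn). Beside 2 for the cultured endothelial cells against MACs, 1 was called (Lyve1) when only these groups were fitted and 1 with the block (Prox1 at 0.136). Beside 0 for the Akt effect in RACVECs minus that in MACs, 1 (Lyve1) was called when only these groups were fitted. Leaving out single libraries gave 0 to 1 calls for RACVECs against MACs, Akt-RACVECs against RACVECs, Akt-RACVECs against Akt-LECs and the Akt effects, 2 to 3 for the cultured cells against MACs, 2 to 2 for Akt-liver ECs against LSECs, and 0 to 0 for the rest. Apart from the fits on fewer samples, the cause was not tested. Equal replicate numbers did not mark paired samples throughout any pair of groups. Of 9 pairs checked, 0 had all correlations of same-numbered libraries over 0.1 (means -0.111 to 0.296), and in 0 did every library correlate best with its own number. For Akt-LECs and Akt-liver ECs, the pair with the highest mean, they were 0.571, 0.366 and -0.05 for numbers 1, 2 and 3. The check therefore does not settle whether single libraries were paired. With 3 libraries a group and no counts, intervals for Prox1, Pdpn and Reln span several log2 units, so a missing call does not show equal levels.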
